A study of Mus musculus with 6 samples.

Results

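From 19938 measured genes, 10 that encode Toll-like receptors or partner proteins of lipopolysaccharide (LPS) sensing were compared between B lineage cells of the mouse small intestine and of the bone marrow. They were taken by gene symbol, from a list drawn up with earlier results of these data known: the receptors Tlr1, Tlr2, Tlr4, Tlr6, Tlr7 and Tlr9, the adaptor Myd88, the LPS co-receptor Ly96 (MD-2), and the receptor Cd180 (RP105) with its partner Ly86 (MD-1). Each symbol had 1 probe set on the array, so the 10 genes stand for 10 of 35556 probe sets. The mice were of the strain given as RAG2-GFP/129Sve and 17 to 25 days old, and they were kept under specific pathogen-free housing. They carried a green fluorescent reporter for Rag2, a gene of antigen receptor assembly, and the reporter-positive cells were sorted. One group of samples came from the lamina propria, the connective tissue beneath the gut epithelium, and the other from the bone marrow, both from mice of the same strain, age and reporter with no further treatment named. Each tissue gave 3 pools of cells, each pool was run on 1 array, and each experiment pooled 8 to 12 animals, so no value belongs to a single mouse.

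Toll-like receptors recognise conserved parts of microbes and signal to NF-kB, mostly through the adaptor Myd88. Tlr4 needs Ly96 to bind LPS of Gram-negative bacteria, while Cd180 resembles the outer part of Tlr4, lacks its signalling domain, and reaches the cell surface with Ly86. B cells carry several of these receptors, and Cd180 and Ly86 are known mainly from B cells and myeloid cells.

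All values are log2 RMA values as the authors deposited them, so 1 unit is a doubling, and differences are lamina propria minus bone marrow. Levels of different genes are not compared, because each probe set has its own brightness. The median of all probe sets in an array lay between 5.34 and 5.48, and Tlr1, Tlr6 and Tlr7 lay below it in all 6 arrays. Tlr2 alone of the 10 lay above it in all 6. Tlr4 lay above it in the 3 marrow arrays and below it in the 3 lamina propria arrays. The sorted cells carried early B lineage RNA in both tissues, with the surrogate light chain gene Vpreb1 at 11.67 to 11.92 in the lamina propria and 11.79 to 11.85 in the marrow. Lamina propria pools 1 and 2 stood apart from the other arrays. They correlated across genes at 0.766 to 0.832 with the other 4 arrays, while lamina propria pool 3 correlated at 0.954 to 0.966 with the marrow arrays (genes are not independent replicates). The differences of the 10 genes are therefore also given for pool 3 alone and without it. The number of arrays limits the precision.

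Of the 10 genes, 7 have an upstream sequence in the RefSeq promoter table (GRCm38.p6), with none there for Tlr4, Tlr7 and Ly96. The 250 bases before the start site are shown for Cd180 (chr13:102693297-102693546, plus strand, the more upstream of its listed starts) and Ly86 (chr13:37345095-37345344, plus strand), because these partner genes lay lower in lamina propria pools 1 and 2 by similar amounts, and for Tlr9 (chr9:106222348-106222597, plus strand), the gene with the most matches among the 7. All are written from 5′ to 3′ on the gene's strand, and capitals mark the motifs found.
Cd180: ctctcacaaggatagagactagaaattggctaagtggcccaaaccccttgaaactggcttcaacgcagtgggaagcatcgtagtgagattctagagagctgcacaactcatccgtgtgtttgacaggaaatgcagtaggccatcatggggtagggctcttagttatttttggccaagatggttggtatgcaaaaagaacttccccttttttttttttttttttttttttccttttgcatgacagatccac
Ly86: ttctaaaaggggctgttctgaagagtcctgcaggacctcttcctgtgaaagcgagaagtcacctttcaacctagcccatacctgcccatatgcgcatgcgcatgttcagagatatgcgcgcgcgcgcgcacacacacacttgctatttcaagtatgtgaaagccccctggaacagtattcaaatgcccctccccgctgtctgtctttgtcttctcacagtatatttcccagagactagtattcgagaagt
Tlr9: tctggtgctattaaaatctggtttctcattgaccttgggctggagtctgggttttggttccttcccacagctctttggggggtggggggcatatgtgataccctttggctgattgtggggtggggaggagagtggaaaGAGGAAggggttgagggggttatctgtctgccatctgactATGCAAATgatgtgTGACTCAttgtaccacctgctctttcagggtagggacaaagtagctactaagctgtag
Motifs were searched on both strands: GAGGAA (the core bound by PU.1), ATGCAAAT (the octamer of B cell genes) and TGACTCA (AP-1). Of 32851 windows of 250 bases in that table, 23.3% hold GAGGAA, 1.6% ATGCAAAT and 4.46% TGACTCA. The Tlr9 window holds GAGGAA, ATGCAAAT and TGACTCA 1 time each, with no overlap among them. The windows of Cd180 and Ly86 hold none of these letters. In the other windows, GAGGAA occurs 1 time before a start of Tlr1, and those of Tlr2, Tlr6 and Myd88 hold no match. The motifs were chosen after the sequences were read, and Tlr9 was shown for its matches. The shares over all windows therefore do not measure how unusual its matches are. A match is a description of letters, not of a bound site.

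Tlr4, the LPS receptor, was the gene of the 10 that set the tissues apart. It measured 4.63, 4.14 and 4.63 in lamina propria pools 1, 2 and 3, and 5.97, 6.03 and 5.85 in the marrow pools. All lamina propria pools lay below all marrow pools, and the marrow pools lay close together. The means were 4.47 ± 0.28 and 5.95 ± 0.09 (SD, n = 3 each). Lamina propria minus bone marrow was -1.48 with a 95% interval from -1.99 to -0.97, or 2.79-fold. Fitted with limma over all genes, the difference did not pass the threshold of 0.05 (adjusted p = 0.155), the smallest adjusted p that any gene reached, shared with others. By unadjusted p Tlr4 was number 25 of 19938 genes. The difference was about as large in pool 3 as in pool 1. The pools lay 1.32, 1.81 and 1.32 below the marrow mean, respectively, and without pool 3 the difference was -1.56 and passed (limma adjusted p = 0.0123). In that setting 7222 of 19938 genes passed. Pool 3 alone against the marrow gave -1.32 (95% interval -1.77 to -0.87, limma adjusted p = 0.363), where the lone array is assumed to vary like the marrow arrays. Tlr4 also passed with an intensity trend and robust variances (limma adjusted p = 0.0362) and with estimated array weights (limma adjusted p = 0.0152). Of all genes, 40 passed in the former setting and 5586 in the latter.

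The lowest marrow pool and the highest lamina propria pool were 1.22 apart for Tlr4. Over all genes, a gap of at least this size occurred in 41 of 19938, or 0.206%, with 38 of them lower and 3 higher in the lamina propria. This count was made after the value of Tlr4 was seen. Genes of the same mean level, between 5 and 6, had median differences of 0.44, 0.40 and -0.02 in lamina propria pools 1, 2 and 3. That level is the mean of all 6 arrays, which includes the lower lamina propria values. The marrow values of Tlr4, 5.85 to 6.03, border the level between 6 and 7, where the medians were -0.06, -0.09 and -0.02. The part of such shifts in the Tlr4 difference was not tested.

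Ly96, which forms the LPS binding site together with Tlr4, gave no such separation. It measured 3.48, 3.86 and 3.62 in the lamina propria pools and 3.83, 4.32 and 6.88 in the marrow pools. Marrow pool 3 was far above the other 5 arrays, and lamina propria pool 2 lay within the range of the marrow. The difference was -1.35 (95% interval -3.05 to 0.34, limma adjusted p = 0.359), and without marrow pool 3 it was -0.42 (limma adjusted p = 0.58). Lamina propria pool 3 alone gave -1.39, and leaving it out -1.34. Marrow pool 3 exceeded the higher of the other marrow pools by 2.56, a gap that 4 of 19938 genes reached, Ly96 included. This count too was made after the values were seen, with the array and direction picked for Ly96. In that pool the other receptor partners were not high, with Ly86 at 5.27 and Cd180 at 6.10, each the lowest of the marrow values.

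**Figure D1:**
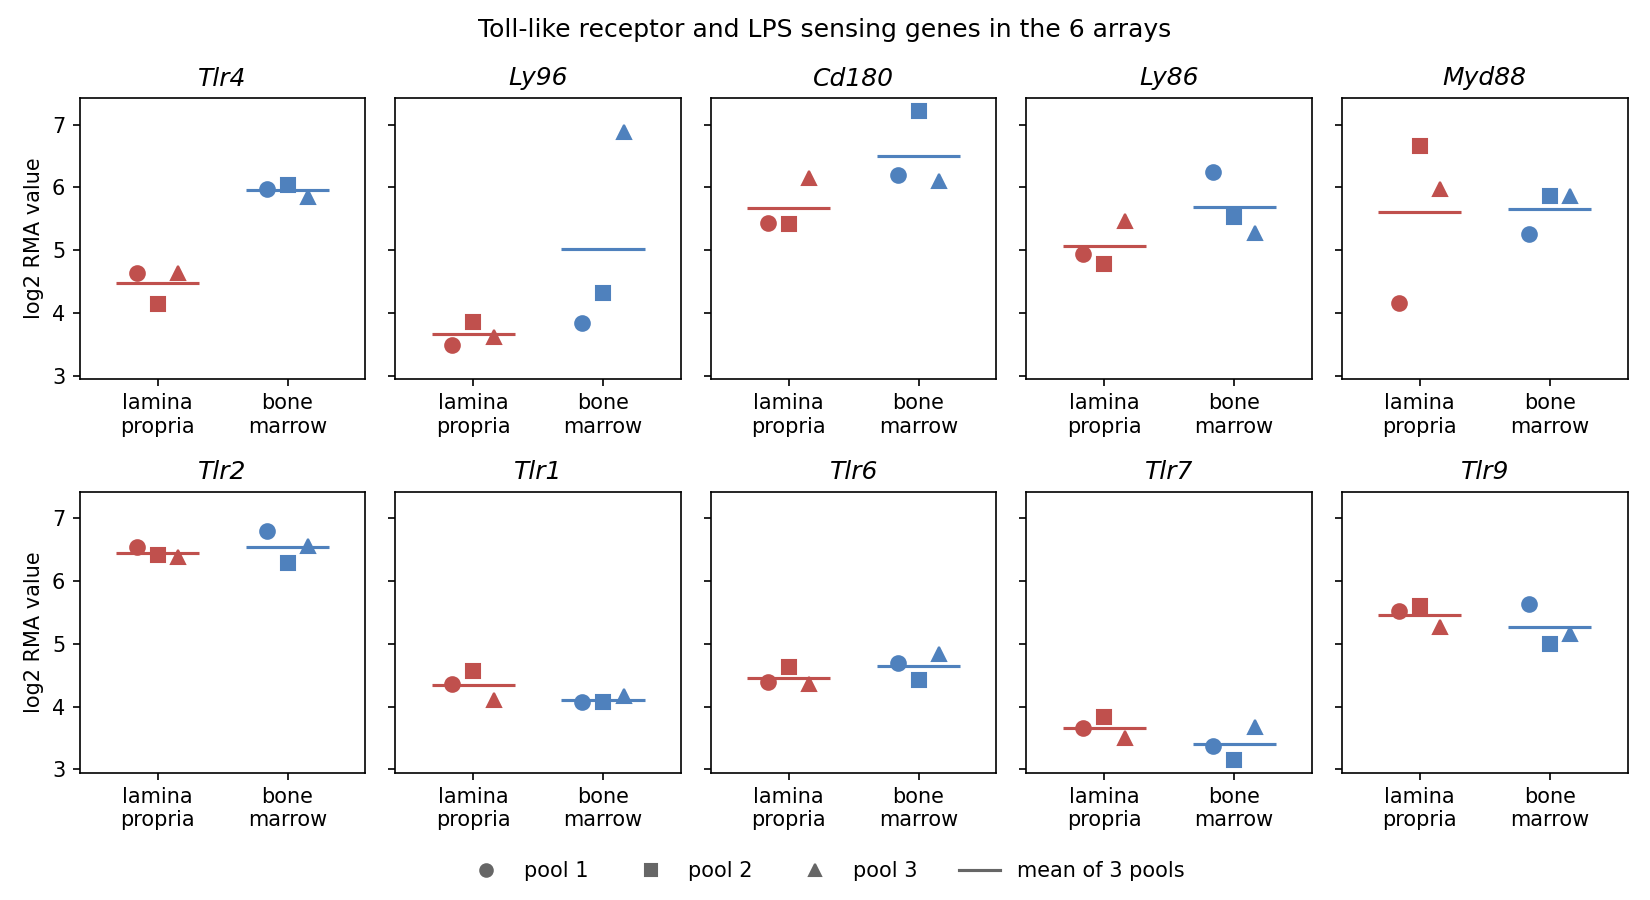
Log2 RMA values (y axis) of the 10 genes in 3 lamina propria pools (red) and 3 bone marrow pools (blue), with symbols for the pool number and bars for the tissue means. Tlr4 alone shows no overlap between the tissues, with 4.14 to 4.63 in the lamina propria and 5.85 to 6.03 in the marrow, and the marrow mean of Ly96 rests on pool 3 at 6.88.

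Cd180 and Ly86, the surface receptor and the partner it needs, lay lower in lamina propria pools 1 and 2. Cd180 measured 5.43, 5.42 and 6.15 in the lamina propria and 6.19, 7.22 and 6.10 in the marrow. Pool 3 lay just within the marrow range, and marrow pool 2 was the highest array. The difference was -0.84 (95% interval -1.69 to 0.02, limma adjusted p = 0.356), -1.08 without lamina propria pool 3 (limma adjusted p = 0.0664) and -0.35 in pool 3 alone (95% interval -1.68 to 0.97). Without marrow pool 2 it was -0.48 (limma adjusted p = 0.601). Ly86 measured 4.93, 4.77 and 5.47 in the lamina propria and 6.25, 5.52 and 5.27 in the marrow. Here too pool 3 lay within the marrow range and pools 1 and 2 below it. The difference was -0.63 (95% interval -1.38 to 0.13, limma adjusted p = 0.359), -0.83 without pool 3 (limma adjusted p = 0.083) and -0.21 in pool 3 alone (95% interval -1.33 to 0.90). Without marrow pool 1 it was -0.34 (limma adjusted p = 0.593). The marrow pool with the highest Cd180 was pool 2 and the one with the highest Ly86 was pool 1, so the partners did not share an order within the marrow. Genes at the level of Cd180, between 6 and 7, had medians of -0.06 and -0.09 in pools 1 and 2, where Cd180 stood at -1.08 in each. In the same pools Ly86 stood at -0.76 and -0.91, against medians of 0.44 and 0.40 for genes between 5 and 6.

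Myd88, the adaptor that most Toll-like receptors share, varied more within the lamina propria than between the tissues. It measured 4.16, 6.66 and 5.97 in the lamina propria and 5.26, 5.86 and 5.86 in the marrow, so the lamina propria held both the lowest and the highest array. The means were 5.60 ± 1.29 and 5.66 ± 0.35 (SD, n = 3 each). They differed by -0.06 with a 95% interval from -1.46 to 1.34 (limma adjusted p = 0.948). Its sign rested on single arrays, at 0.66 without lamina propria pool 1 and -0.59 without pool 2, and it stood at 0.31 in pool 3 alone and -0.25 without it. Pool 1 was 1.81 below the lower of the other lamina propria pools, a gap that 193 of 19938 genes (0.968%) reached. The array and direction of this count were picked after the values of Myd88 were seen.

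Tlr2, which pairs with Tlr1 or Tlr6 to recognise bacterial lipoproteins, was nearly level across the arrays. It measured 6.54, 6.41 and 6.38 in the lamina propria and 6.80, 6.28 and 6.56 in the marrow, a difference of -0.10 (95% interval -0.60 to 0.40, limma adjusted p = 0.741). Over the 6 arrays, the genes whose values followed Tlr2 most closely were Opn3, Ppp2r5d and Gstz1 (Pearson r 0.940, 0.925 and 0.923, chosen as the highest of all genes). These arrays share their animals' strain and their processing, and Tlr2 spanned only 6.28 to 6.80, so the likeness is of small differences. Tlr1 measured 4.36, 4.56 and 4.11 in the lamina propria and 4.07, 4.08 and 4.16 in the marrow, a difference of 0.24 (95% interval -0.24 to 0.72, limma adjusted p = 0.461). Tlr6 measured 4.39, 4.63 and 4.36 against 4.69, 4.42 and 4.84, a difference of -0.19 (95% interval -0.68 to 0.31, limma adjusted p = 0.552). For both genes the tissues overlapped. In pool 3 alone Tlr2, Tlr1 and Tlr6 stood at -0.17, 0.00 and -0.28, and without it at -0.07, 0.36 and -0.14. Tlr1 and Tlr6 lie next to each other in the RefSeq annotation, with 0 genes between them. They are close relatives, so their probe sets may take up some of each other's RNA. This was not tested, and their values are uncertain in that respect.

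Tlr7 and Tlr9, the endosomal receptors for single-stranded RNA and for CpG DNA, lay slightly higher in the lamina propria means, with overlap. Tlr7 measured 3.66, 3.83 and 3.50 in the lamina propria and 3.37, 3.15 and 3.68 in the marrow, a difference of 0.26 (95% interval -0.26 to 0.78, limma adjusted p = 0.459). Tlr9 measured 5.53, 5.60 and 5.26 against 5.63, 4.99 and 5.15, a difference of 0.21 (95% interval -0.36 to 0.77, limma adjusted p = 0.565). These sizes are near the median of 0.22 over all genes. Without pool 3 they were 0.34 and 0.31, in pool 3 alone 0.10 and 0.00, and with cyclic loess scaling, which removes shifts that depend on level, they were 0.00 and -0.05, so the sign of Tlr9 turned. Under the same scaling Tlr1 stood at -0.06.

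**Figure D2:**
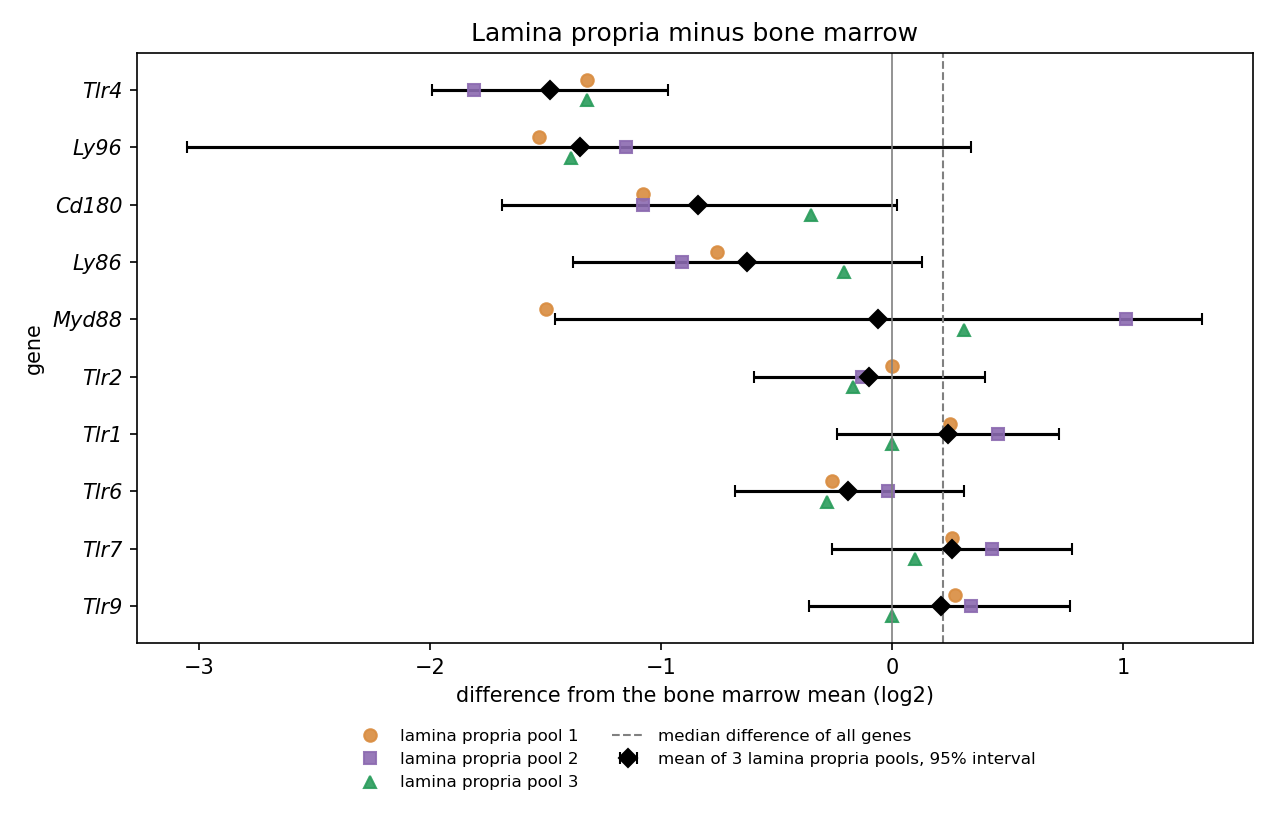
Differences from the bone marrow mean (x axis, log2) for each of the 10 genes (y axis). Black diamonds are the mean of the 3 lamina propria pools with the 95% interval from limma, coloured symbols are the single pools, and the dashed line is the median of all genes at 0.22. The interval of Tlr4, from -1.99 to -0.97, is the one that does not reach 0, and the pools of Myd88 lie on both sides of 0.

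As a group, 7 of the 10 genes had a negative difference and 3 a positive one, with a median of -0.15, whereas 13486 of all 19938 genes had a positive difference and 6452 a negative one, with a median of 0.22. None of the 10 passed an adjusted p of 0.05, and limma called 0% of all genes at that threshold. At an unadjusted p under 0.05, 1 of the 10 was lower (Tlr4) and 0 were higher, where limma gave 8.15% of all genes lower and 5.53% higher. The tissues did not overlap for 1 gene, Tlr4, in the lower direction and 0 in the higher, against 7.27% and 14.8% of all genes. These counts of genes without overlap or at a low p are near or below the background. Without lamina propria pool 3, limma called 1 of the 10 lower (Tlr4 again) and 0 higher, against 12.1% and 24.1% of all genes. Pool 3 alone lay below all marrow pools for 3 of the 10 (Tlr4, Tlr6 and Ly96) and above them for 1 (Myd88), against 26.7% and 24.8% of all genes. The median of the 10 was -0.19 in pool 3 alone and -0.19 without it, where all genes had -0.01 and 0.33.

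**Figure D3:**
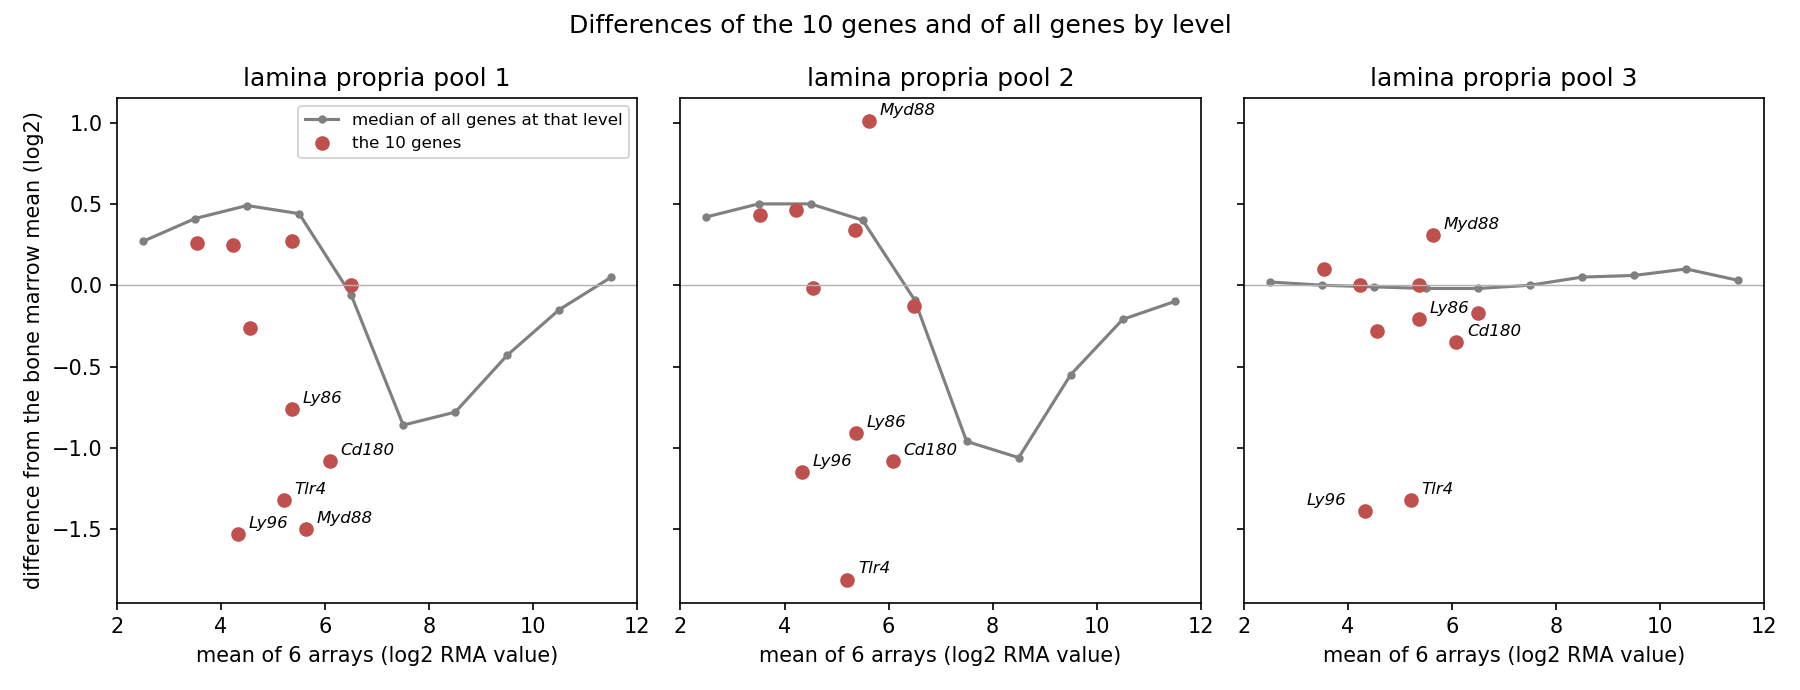
Difference from the bone marrow mean (y axis, log2) against the mean of all 6 arrays (x axis, log2 RMA value) for lamina propria pools 1, 2 and 3. Red points are the 10 genes and the grey line joins the medians of all genes in steps of 1 unit. In pool 2 the line runs from 0.50 at a level of 3 to 5 down to -1.06 at 8 to 9, pool 1 has a like course, in pool 3 the line stays between -0.02 and 0.10, and Tlr4 lies far below it in all 3.

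The genes around these receptors were followed in lists. Of 6 chaperones and LPS delivery proteins, 3 had a negative and 3 a positive difference (median -0.14). Lbp, the serum protein that carries LPS, had no overlap, at 6.41, 5.92 and 5.75 in the lamina propria and 5.61, 5.32 and 5.69 in the marrow, a difference of 0.49 (95% interval -0.09 to 1.06, limma adjusted p = 0.356). The next values were picked after they were seen, for their place in the pathway. Cd14, the surface protein that hands LPS to Tlr4 and Ly96, differed by 0.43 with overlap, and it stood at 4.58 in pool 3, inside the marrow range of 4.50 to 4.63. Unc93b1, which carries the endosomal receptors to their compartment, differed by -0.87, and Hsp90b1, the chaperone gp96 that folds most Toll-like receptors, by -0.94, both with overlap. In pool 3 alone these were -0.37 and -0.24. Of the 4 measured receptors outside the 10, all had a positive difference (median 0.20), near that of all genes. Tlr3, the receptor for double-stranded RNA, had no overlap at 0.39 (95% interval -0.11 to 0.89, limma adjusted p = 0.361). Its pools stood at 0.49, 0.59 and 0.09, where genes between 4 and 5 had medians of 0.49, 0.50 and -0.01. Those of Lbp stood at 0.87, 0.38 and 0.21, against 0.44, 0.40 and -0.02 for genes between 5 and 6. Of all genes, 14.8% were higher and 7.27% lower without overlap.

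Among 17 adaptors and kinases that relay the signal, 11 had a negative difference and 6 a positive one (median -0.23). Map3k7 (TAK1), the kinase that activates the IKK complex, measured 5.98, 5.05 and 7.25 in the lamina propria and 8.20, 7.52 and 8.25 in the marrow. All lamina propria pools lay lower, and pool 3 was the nearest to the marrow. The difference was -1.90 (95% interval -3.14 to -0.65, limma adjusted p = 0.342). Tbk1, the kinase of the interferon branch, differed by -1.26 (95% interval -2.32 to -0.20, limma adjusted p = 0.356), also with no overlap, and by -0.19 in pool 3 alone. None of the 17 passed, while 5 were lower at an unadjusted p under 0.05 (limma) and 0 higher, against 8.15% and 5.53% of all genes. Without lamina propria pool 3, limma called 6 of the 17 lower and 2 higher, against 12.1% and 24.1% of all genes. The list's median was 0.03 in pool 3 alone and -0.36 without it. Genes at levels between 7 and 8, where Map3k7 and Tbk1 lie, had medians of -0.86 and -0.96 in pools 1 and 2 and 0.00 in pool 3. Others of the list lie lower. Medians in pools 1 and 2 were 0.44 and 0.40 between 5 and 6, and -0.06 and -0.09 between 6 and 7. The part of such shifts in the differences of the list was not tested.

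Genes that limit or carry out the response gave other values. Of 10 negative regulators, which limit the signal, 7 had a positive difference, with a median of 0.41 over the list, 0.59 in pool 3 alone and 0.06 without pool 3. Tnip1, which restrains NF-kB together with the product of Tnfaip3, measured 6.76, 6.84 and 6.96 in the lamina propria and 6.26, 6.27 and 6.43 in the marrow, a difference of 0.53 (95% interval 0.09 to 0.98, limma adjusted p = 0.356). Every lamina propria pool lay above every marrow pool, as for Socs1, a brake on cytokine signalling, at 0.70 (95% interval 0.03 to 1.37, limma adjusted p = 0.356). Pool 3 lay above all marrow pools for 7 of the 10 regulators, against 24.8% of all genes. The 3 regulators with a negative difference were Cyld, Irak3 and Sigirr, at -1.75, -0.43 and -0.10, all with overlap. Cyld, the largest difference of the list, stood at -0.09 in pool 3 alone and -2.58 without it. Of 5 response transcription factors, Rel alone had no overlap, at 10.54, 9.98 and 10.64 against 9.17, 9.06 and 9.16, and its limma adjusted p was 0.226. Of 6 other bacterial sensors, none was without overlap. Casp4, the cytosolic LPS sensor also known as caspase-11, measured 9.28, 5.67 and 6.58 in the lamina propria and 5.68, 6.56 and 6.64 in the marrow. Pool 1 was high and pool 2 was the lowest array, so its difference of 0.88 (95% interval -1.10 to 2.87, limma adjusted p = 0.497) rests on pool 1. Nod2, a sensor of bacterial cell wall fragments, differed by 0.49 with overlap and by 0.03 in pool 3 alone.

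**Figure D4:**
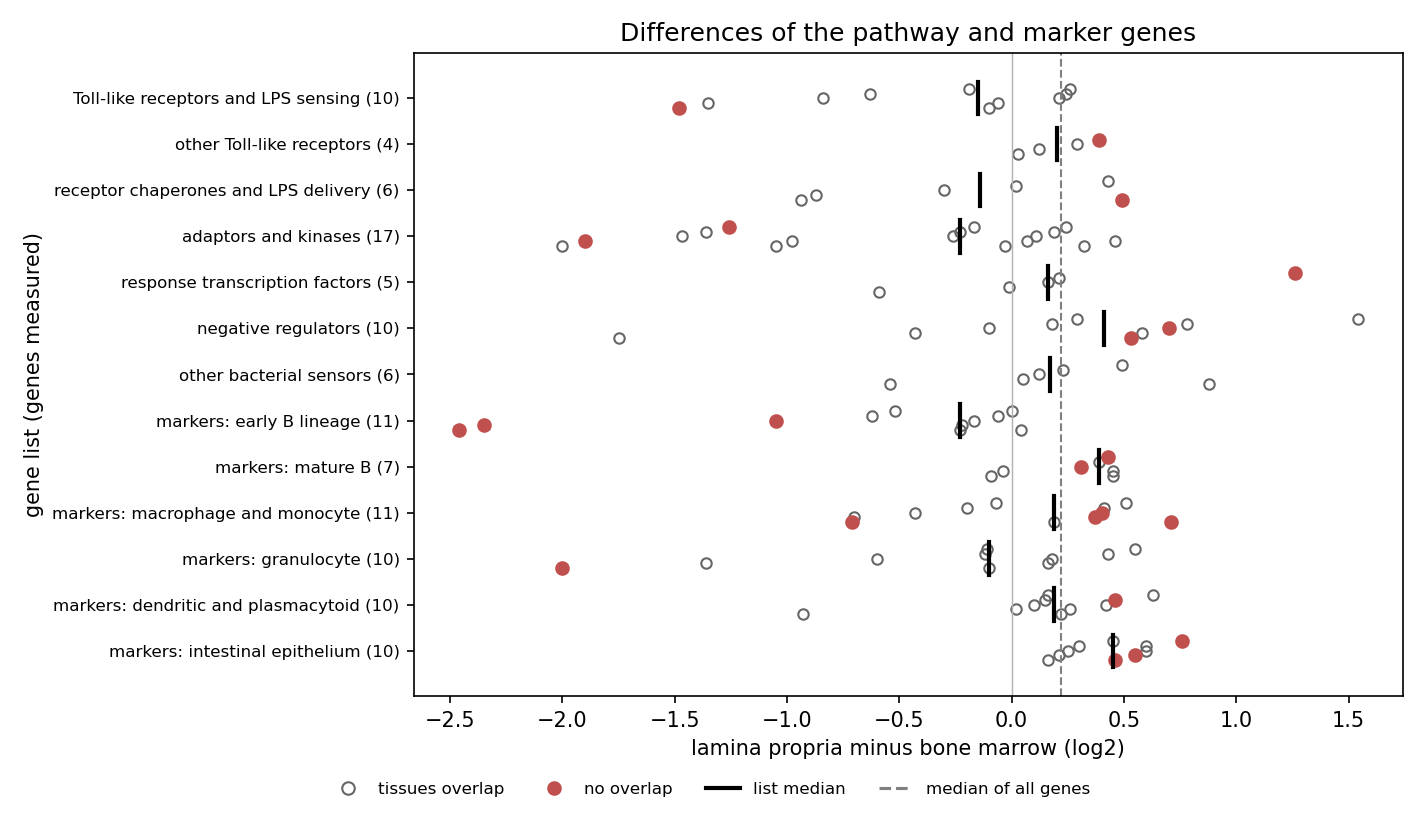
Differences between lamina propria and bone marrow (x axis, log2) for each measured gene of the pathway and marker lists (y axis, genes measured in brackets). Filled points have no overlap between the tissues, black bars are list medians and the dashed line is the median of all genes at 0.22. The adaptors and kinases reach from -2.00 to 0.46 with a median of -0.23, and the negative regulators from -1.75 to 1.54 with a median of 0.41.

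Tlr4, Ly96, Cd180 and Ly86 are also expressed by myeloid cells, so markers of other cells that a sort could hold were read in the same arrays. Of 10 granulocyte markers, 6 had a negative difference (median -0.10). Without overlap, 1 was lower and 0 were higher, against 7.27% and 14.8% of all genes. Their summed level was 43.7 to 49.7 in the lamina propria and 45.7 to 56.3 in the marrow. S100a9, an abundant neutrophil protein, measured 5.57, 5.63 and 5.30 in the lamina propria and 6.56, 9.26 and 6.68 in the marrow, and Ngp, a neutrophil granule protein, differed by -0.60. S100a9 was highest in marrow pool 2, where Tlr4 stood at 6.03 and Ly96 at 4.32, and Ly96 was highest in marrow pool 3, where S100a9 stood at 6.68. S100a8, the partner of S100a9, measured 4.10, 4.59 and 4.05 in the lamina propria and 5.27, 7.48 and 4.08 in the marrow. The 4 granulocyte markers with a positive difference were Elane, Ly6g, Camp and Mpo, at 0.55, 0.43, 0.18 and 0.16, all with overlap. Of 11 macrophage and monocyte markers, 5 had a negative difference (median 0.19). Their summed level was 57.5 to 62.3 in the lamina propria and 58.5 to 60.6 in the marrow. Without overlap, 3 were higher and 1 was lower, against 14.8% and 7.27% of all genes. Those higher were Csf1r, C1qa and Cx3cr1, at 0.71, 0.40 and 0.37, and the one lower was Cd68 at -0.71. Itgam and Tyrobp differed by -0.70 and -0.20 with overlap. In marrow pool 3, where Ly96 was highest, Mpeg1 stood at 5.97, against 4.91 and 5.18 in marrow pools 1 and 2. Adgre1 was also the highest of its marrow values there, while Lyz2, Itgam, Cd68, Tyrobp and C1qa were the lowest of theirs. Nlrc4, from the list of bacterial sensors, stood at 5.80 in marrow pool 3, against 4.02 and 4.18. RMA values have no true 0, and the neutrophil markers Ly6g and Cxcr2 averaged 3.20 and 3.36 in the lamina propria and 2.77 and 3.47 in the marrow. The part of such cells in the Tlr4 difference was not tested. In sorted pools, fewer cells of a type and less RNA per cell cannot be told apart.

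Markers of B cell stages were read in the same pools, and none of them passed. For the counts without overlap given here, the shares over all genes were 7.27% lower and 14.8% higher. Of 11 early B lineage genes, 10 had a negative difference (median -0.23) and 3 had no overlap, all lower: Rag2 at -2.35, Il7r at -2.46 and Rag1 at -1.05. Like Tlr4, Rag2 and Il7r also lay below the marrow mean in pool 3, by 2.11 and 1.71. Cd24a, a surface protein of immature B cells, differed by -0.17 with overlap, and Vpreb1, Igll1 and Cd79a by -0.06, 0.00 and 0.04. Of 7 mature B markers, 5 had a positive difference (median 0.39) and 2 had no overlap, both higher, among them Tnfrsf13c, the BAFF receptor, at 0.31 (95% interval -0.12 to 0.74, limma adjusted p = 0.372). S1pr1, an exit receptor of lymphocytes, differed by 0.45 with overlap. Their summed level was 39.3 to 39.8 in the lamina propria and 36.9 to 38.5 in the marrow, with no overlap. Genes with a mean level between 4 and 5, as several of these have, had a median difference of 0.34. The 10 dendritic and plasmacytoid markers had a median of 0.19, with 9 positive and 1 negative. Bst2, at 0.46, was the one without overlap, Tcf4 the negative one at -0.93, and Irf8 stood at 0.02. All 10 intestinal epithelium markers had a positive difference (median 0.45), with Krt8 at 0.45 and Cdx1 at 0.76, and their summed level was 54.1 to 56.9 in the lamina propria and 50.4 to 51.1 in the marrow. The part of cell stage or of epithelial RNA in the differences of the 10 genes was not tested.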

How the data were processed

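RNA of reporter-positive B lineage cells was measured on 6 arrays, 3 pools per tissue. Per the labels' protocols, 4.5 to 47 ng of total RNA were amplified. The authors deposited log2 values, and the submitters' processing notes name RMA and Affymetrix Expression Console (version 1.3.0.187). Settings were not given in the sources used here. Detection calls were not used.

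Values were taken as deposited. Of 35556 probe sets, 21789 had 1 gene symbol in the platform table, 1621 had several and 12146 were not listed there. Through Entrez identifiers 21698 matched the RefSeq table of GRCm38.p6, which changed 0 symbols. A gene with several probe sets took the one with the highest mean, which left 19938 genes. Tissues were compared in limma 3.58.1 under R 4.3.3 (lmFit, eBayes, no trend, two-sided, no block), and p-values were adjusted over all genes by Benjamini-Hochberg, with 0.05 as the threshold. Intervals are 95% from the moderated variances. The code was tested on simulated data. With 3 arrays per tissue an exact permutation test has 0.1 as its smallest p, so none was used.

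The 10 genes and all lists were chosen with earlier results of these data known. Per list, up to 4 genes without overlap in the commoner direction were named, otherwise the 2 brightest, and 2 per marker list. Genes named beside these were picked after their values were seen. The motifs were chosen after the sequences were read. Lists are described by counts and medians only. Listed genes with no single-symbol probe set were not analysed here. The alternatives tried were quantile and cyclic loess scaling, a pool number block, keeping only genes with a mean above 5.42, robust variances with an intensity trend, array weights, the mean of probe sets, a threshold of 0.01, pool 3 alone and leaving out each array. Pools of animals are the replicates, and p-values measure their spread. Figures were drawn with matplotlib 3.10.9.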

Additional observations from a re-analysis of the deposited data

How the results depend on the processing

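Tlr4 kept its negative sign in all 14 settings that gave it a value, from -1.75 to -1.32, with limma adjusted p from 0.0123 to 0.575. It passed in 3 of them: with a trend and robust variances, with array weights, and without lamina propria pool 3. The filter on dim genes removed Tlr4 and 6 other genes of the 10, leaving 3. Cd180, Ly86, Ly96 and Tlr6 were negative in every setting that gave them a value. Ly96 had no overlap with quantile and cyclic loess scaling, in pool 3 alone, without lamina propria pool 2 and without marrow pool 1. Signs turned for Tlr2 at 0.11 and Myd88 at 0.00 with quantile scaling, for Tlr1 at -0.06 and Tlr9 at -0.05 with cyclic loess scaling, and for Myd88 at 0.31 in pool 3 alone. With 1 array left out, Myd88 ran from -0.59 to 0.66 and Tlr2 from -0.23 to 0.02. The causes were not tested.

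Genes called by limma over the whole table numbered 16 with the replicate block (2 higher, 14 lower), 40 with a trend and robust variances (1 and 39), 5586 with array weights (3368 and 2218), which gave pool 3 a weight of 0.15, and 0 to 7222 with 1 array left out, the latter without lamina propria pool 3. Of the 10 genes, 1 was called with the trend, 1 with array weights, and 0 to 1 with 1 array left out. Genes of the 10 without overlap numbered 0 after the dim filter, 2 with quantile scaling, 3 with cyclic loess scaling, 4 in pool 3 alone and 2 to 5 with 1 array left out. The share of all genes without overlap was 21.1%, 23.2%, 19.1% and 51.5% in the first 4 of these settings and 25.7% to 69.9% with 1 array left out. The 5 came without marrow pool 3, where the share was 31.6%, and without lamina propria pool 3 there were 4, against 69.9%. Their median was -0.38 with cyclic loess scaling and -0.38 to -0.09 with 1 array left out. The other settings left these counts and the median within their spread. The labels do not say that pool numbers pair the arrays, and deviations of same-numbered pools correlated at 0.131, 0.0513 and 0.226 across genes, and lamina propria pool 2 correlated best with marrow pool 1. With the replicate block Tlr4 had a limma adjusted p of 0.0672. With 3 arrays per tissue, limma called 0% of all genes in the main fit, and even Rag2 at -2.35 did not pass. Differences as small as those of Tlr1, Tlr2, Tlr6, Tlr7 and Tlr9 were not detectable here either.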
